A study of Homo sapiens with 24 samples.

Results

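Depletion of G9a in cells without added hormone was examined by comparing the 3 ethanol-treated libraries of Nalm6 cells expressing shG9a with the 3 ethanol-treated libraries of cells expressing shNS. These 6 libraries were chosen by their labels, out of 24 libraries in 8 groups. Nalm6 is an established human acute lymphoblastic leukemia cell line of B-cell precursor type, shNS is an shRNA against a nonspecific sequence, and shG9a is an shRNA against G9a. Cells of all groups were transduced with lentivirus, selected with puromycin and used as resistant populations, without cloning. They then received ethanol, the vehicle, or 100 nM dexamethasone (dex), a synthetic glucocorticoid, for 8 h. The other groups, used here only beside the G9a values, were shGLP ethanol, shHP1γ ethanol, shG9a dex and shNS dex. The methods name a single shRNA vector for each target, so depletion of G9a and any other action of that shRNA cannot be told apart.

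G9a (gene EHMT2) and its close relative GLP (gene EHMT1) are histone methyltransferases that together place mono- and dimethyl marks on lysine 9 of histone H3, a modification typical of silent chromatin. HP1γ (gene CBX3) is a chromodomain protein that binds methylated lysines, including a methylated site on G9a and GLP themselves. Besides their repressive role, G9a and GLP also serve as coactivators of the glucocorticoid receptor (gene NR3C1) at some of its target genes. The comparison in ethanol concerns cells to which no dex was added. In bulk RNA, a change in every cell and a change in the share of cells that carry a transcript cannot be told apart.

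The 6 libraries held 10220732 to 12056772 counts, and between 15981 and 17006 accessions had at least 1 count in them. Of 64519 RefSeq accessions in the table, 10167 accessions of 9380 genes were kept by a filter on CPM, which are counts relative to the library's size, of above 1 in 2 or more of the 24 libraries. No RefSeq accession of EHMT2 was among those counted here, so the depletion itself was not analysed. The paper reports efficient depletion of G9a in the cells it sequenced, by immunoblot for the protein and by RT-qPCR for the mRNA. EHMT1 had 3.32, 3.01 and 4.05 CPM in the shG9a libraries and 3.74, 4.6 and 3.91 CPM in the shNS libraries, which overlap (edgeR, adjusted p = 0.640, with a log2 fold change of -0.24 and a standard error of 0.19). The better counted accession of CBX3 (log2 fold change 0.29, adjusted p = 0.553), that of WIZ, a zinc finger partner of the G9a/GLP complex (-0.15, adjusted p = 0.371), and NR3C1 (0.59, adjusted p = 0.559) did not pass the limit either, and NR3C1 was counted at no more than 2.81 CPM on its tested accession.

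The label of the cells was compared with markers. RAG1, which encodes a recombinase subunit of developing lymphocytes, was at 1568 to 2816 CPM in the 6 libraries, and IGLL1, the surrogate light chain of the pre-B-cell receptor, at 50.3 to 74.4 CPM. MME, which encodes the CD10 antigen, and CD79A, a signaling chain of the B-cell receptor, were also counted. CD79B, DNTT, CD22 and CD24 were listed at 0 in all 6 libraries. These 4 genes each have several RefSeq accessions, and accessions at 0 in every library made up 28.2% of those of single-accession genes against 86.1% of those of genes with 6 or more, so a 0 in this table does not show that a gene is silent. Of 12 T and NK cell markers, 11 had at most 3 counts in every library, as did 11 of 12 erythroid markers and 11 of 12 markers of the packaging cells and epithelium. The summed level of the megakaryocyte and platelet list was 117 to 131 CPM with shG9a and 49.5 to 54.0 CPM with shNS. Of that list, GP5 rose as described below and made up most of the sum. GP1BA was at 8.61 to 11.3 CPM with shG9a and 9.82 to 11.1 CPM with shNS, TUBB1 at 5.77 to 7.94 and 6.44 to 6.95 CPM, and ITGA2B at 0.827 to 2.15 and 1.13 to 1.28 CPM, all overlapping, whereas PF4, PPBP, GP1BB, GP6 and SELP were at 0. Of 12 myeloid markers 9 had at most 3 counts, and the summed level was 7.03 to 9.17 CPM with shG9a and 4.70 to 8.34 CPM with shNS. LYZ, the lysozyme gene, was at 5.79 to 7.71 CPM with shG9a and at 2.76 to 5.65 CPM with shNS, which do not overlap. The part of such cells in the results was not tested.

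Without hormone, 379 transcripts of 377 genes differed between shG9a and shNS cells at an adjusted p of at most 0.05, which is 3.73% of the transcripts tested. Of these, 162 were higher (1.59%) and 217 were lower (2.13%) with shG9a. The direction of this balance depended on the scaling: 42.7% of the calls were higher with upper quartile factors and 56.8% with TMM factors (191 of 336 calls), so no direction is given for it. Most changes were small. The median absolute log2 fold change was 0.39 over the called transcripts and 0.15 over all tested transcripts, and 174 of the 379 (45.9%) changed by less than 1.3-fold. At least 1.3-fold changes were found in 205 transcripts (2.02% of those tested), 103 of them higher (1.01%) and 102 lower (1.00%). The higher ones were 50.2% of these and 61.7% with TMM factors. At least 2-fold changes were found in 31 (0.305%), 16 higher (0.157%) and 15 lower (0.148%). All 379 moved in the called direction in 3 of 3 replicate pairs. The replicate number is a term of the model, so calling favours such agreement, which is no separate support. BHLHE40 counts among them with 5.71 against 5.70 CPM in replicate 3. The 3 libraries of each group did not overlap in 341 of the 379, against 19.2% of all tested transcripts (7.56% higher and 11.6% lower).

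The number of calls rested on the replicate structure. Without the replicate term 112 transcripts were called, and a fit of only the 6 libraries called 885. When replicate 3 was left out of all groups 28 were called, when replicate 2 was left out 151, and when a single one of the 6 libraries was left out between 191 and 262. Of 48 called transcripts that were followed through the alternatives, 10 kept their call in every one of the up to 17 alternative settings in which they were tested: TUFM, GP5, TTC24, ENO2 and FBXO33 among the higher ones, and CNOT11, KIF1B, RBM3, PROSER1 and LCN6 among the lower ones. These 10 are described first. Without the replicate term, SLC2A3 had an adjusted p of 0.218 and TFAP2C of 0.309, and the calls of BHLHE40, GPATCH2L, GNA15-DT, LINC00861, LINC02422, BRWD1-AS2, BRF1, OAS3, DEPP1 and BTNL9 were lost as well.

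**Figure D1:**
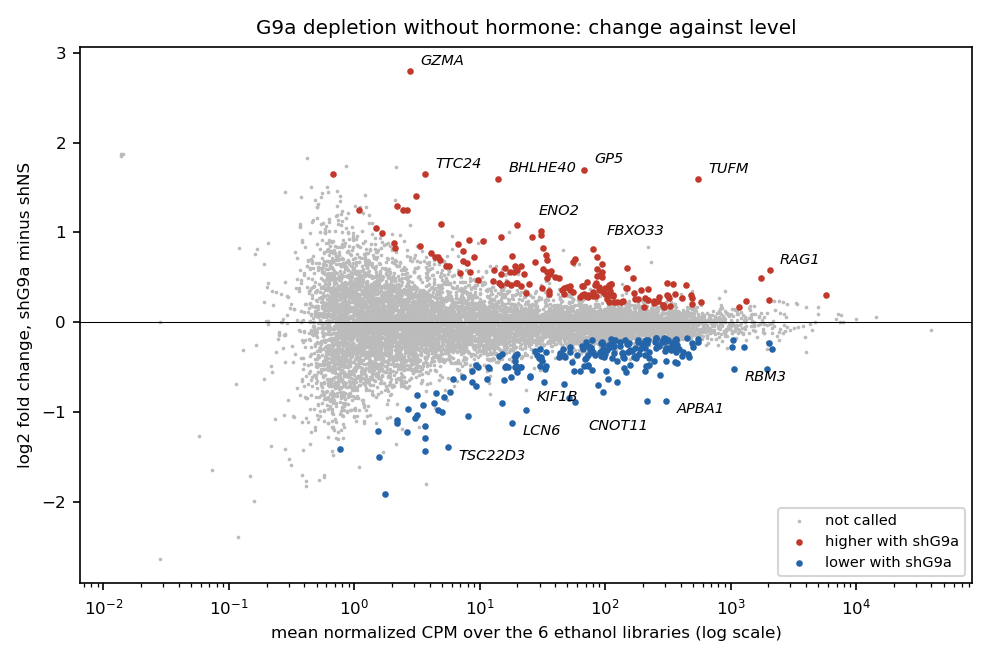
Fitted log2 fold change (shG9a minus shNS, ethanol) of each tested transcript against its mean normalized CPM over the 6 ethanol libraries on a log scale, with called transcripts in red (higher with shG9a) and blue (lower) and 1 Y-linked transcript left out. TUFM stands apart at 1.59 among well counted transcripts, and most called transcripts lie within 1 log2 unit of 0.

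For TUFM, GP5, CNOT11 and KIF1B, 2 transcripts that rose and 2 that fell in every library, the 250 bases before the transcription start are shown to place them in the genome. The letters are from a RefSeq table of build GRCh38, read 5′ to 3′ toward the gene, and each was found once on its chromosome of GRCh37 (hg19, the build the authors used). Capitals mark motifs found on either strand, none of which contains another. The GC box was searched as GGGCGG. The second motif searched was the CCAAT box, by the letters of its name. For the TATA box the search was for TATAAA. An E-box was taken as CACGTG. The windows lie at chr16:28857670-28857919 on the minus strand (TUFM), chr3:194119996-194120245 on the minus strand (GP5), chr2:101869098-101869347 on the plus strand (CNOT11) and chr1:10270378-10270627 on the plus strand (KIF1B), each directly upstream of the annotated gene.
TUFM: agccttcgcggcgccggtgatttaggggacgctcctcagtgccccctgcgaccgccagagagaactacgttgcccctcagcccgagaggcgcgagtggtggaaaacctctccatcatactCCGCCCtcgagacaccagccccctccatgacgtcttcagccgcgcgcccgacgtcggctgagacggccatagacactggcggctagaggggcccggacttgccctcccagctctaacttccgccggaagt
GP5: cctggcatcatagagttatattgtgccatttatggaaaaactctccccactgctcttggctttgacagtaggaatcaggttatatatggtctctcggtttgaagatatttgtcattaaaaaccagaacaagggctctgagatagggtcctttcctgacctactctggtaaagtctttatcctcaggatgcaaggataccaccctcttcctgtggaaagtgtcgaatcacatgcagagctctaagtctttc
CNOT11: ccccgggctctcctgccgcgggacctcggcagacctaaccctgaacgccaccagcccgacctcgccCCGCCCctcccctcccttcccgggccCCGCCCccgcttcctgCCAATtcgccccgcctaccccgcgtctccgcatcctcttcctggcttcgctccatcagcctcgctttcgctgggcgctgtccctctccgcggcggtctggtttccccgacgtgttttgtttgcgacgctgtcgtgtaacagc
KIF1B: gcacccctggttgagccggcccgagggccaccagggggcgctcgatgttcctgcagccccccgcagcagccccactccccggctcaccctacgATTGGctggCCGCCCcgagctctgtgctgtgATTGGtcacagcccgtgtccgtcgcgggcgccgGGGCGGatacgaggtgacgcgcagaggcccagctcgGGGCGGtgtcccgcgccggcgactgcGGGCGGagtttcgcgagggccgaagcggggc
The windows of TUFM, CNOT11 and KIF1B are 66%, 70% and 74.8% G and C and hold 25, 28 and 31 CpG dinucleotides, whereas that of GP5 is 43.2% G and C with 2. The TUFM window holds 1 GC box, that of CNOT11 2 GC boxes and 1 CCAAT box, and that of KIF1B 4 GC boxes and 2 CCAAT boxes. None of these motifs is in the letters of the GP5 window. Over the 6989 tested genes that have a promoter entry of 300 bases (250 before and 50 after the start), a GC box was found in 68.4%, a CCAAT box in 36.9%, a TATA box in 6.31% and an E-box in 10.2%. Among genes called higher with shG9a 77.6% had such an entry, among those called lower 79.2% and among all tested genes 74.5%. In the 125 higher and 171 lower promoters, a GC box was found in 76% and 73.7% and a CCAAT box in 21.6% and 39.2%. A TATA box was found in 7.2% and 5.85%, and an E-box in 12% and 8.19%. These shares were not tested, and genes without an entry are not covered.

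TUFM, which encodes the elongation factor Tu of mitochondrial translation, had the smallest p of all transcripts. It was at 809, 816 and 860 CPM in the shG9a libraries and at 270, 265 and 291 CPM in the shNS libraries, so the groups lie far apart (3.01-fold higher by edgeR, adjusted p = 2.36e-14, log2 fold change 1.59 with a standard error of 0.06). GP5, which encodes platelet glycoprotein V, a subunit of the von Willebrand factor receptor complex, was at 101, 99.8 and 110 CPM with shG9a and at 33.4, 29.4 and 34.0 CPM with shNS (3.25-fold higher, log2 fold change 1.70, standard error 0.23, adjusted p = 9.58e-05). The lowest shG9a library of GP5 was thus well above the highest shNS library. TTC24, a tetratricopeptide repeat gene, was at 5.66, 5.51 and 5.46 CPM against 1.82, 2.12 and 1.36 CPM (log2 fold change 1.65, standard error 0.21, adjusted p = 4.42e-05), which rests on only 16 to 66 counts per library. ENO2, the neuron-type enolase of glycolysis, was at 47.0, 46.5 and 28.8 CPM against 26.8, 22.6 and 19.1 CPM (log2 fold change 0.82, standard error 0.12, adjusted p = 2.87e-04). The ENO2 level in shG9a replicate 3 was close to the highest shNS library, but it exceeded its own replicate. FBXO33, a substrate adaptor of an SCF ubiquitin ligase, was at 112, 116 and 118 CPM against 73.1, 70.5 and 78.1 CPM, a change of 1.56-fold with little spread (log2 fold change 0.64, standard error 0.06, adjusted p = 1.68e-07).

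CNOT11, a subunit of the CCR4-NOT complex that shortens poly(A) tails, had the second smallest p and fell to a fold of 0.547. It was at 155, 140 and 158 CPM with shG9a and at 273, 280 and 277 CPM with shNS (log2 fold change -0.87, standard error 0.05, adjusted p = 5.29e-10). KIF1B, a kinesin motor that carries mitochondria and synaptic vesicle precursors, was at 69.8, 68.8 and 73.4 CPM against 119, 117 and 127 CPM (log2 fold change -0.78, standard error 0.06, adjusted p = 5.50e-09). RBM3, a cold-inducible RNA-binding protein, was the most abundant of the 10, at 920, 896 and 833 CPM against 1296, 1286 and 1207 CPM (log2 fold change -0.52, standard error 0.05, adjusted p = 1.68e-07). In none of these did a shG9a library reach the lowest shNS library. PROSER1, a proline- and serine-rich protein, was at 200, 214 and 250 CPM against 304, 317 and 373 CPM (log2 fold change -0.58, standard error 0.05, adjusted p = 3.75e-08), and in both groups replicate 3 was the highest. LCN6, a lipocalin gene, was at 11.0, 12 and 11.3 CPM against 24.3, 26.1 and 24 CPM (log2 fold change -1.12, standard error 0.13, adjusted p = 1.53e-05).

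**Figure D2:**
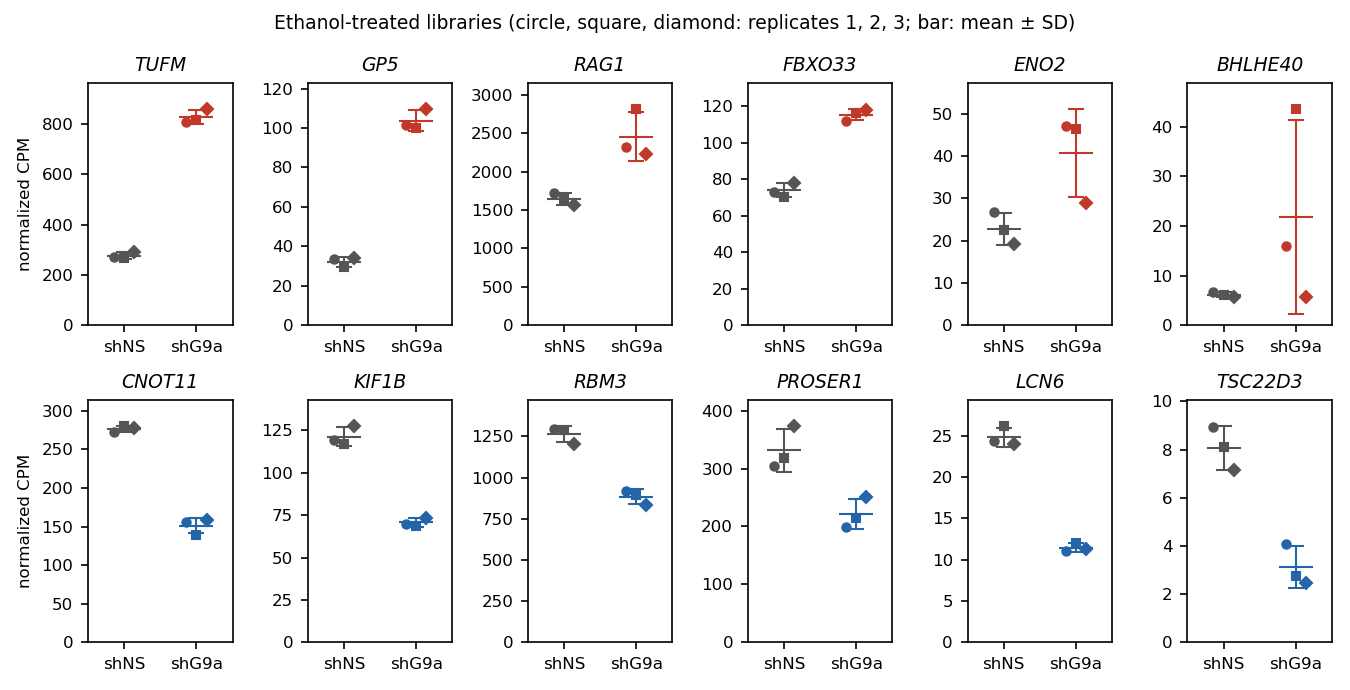
Normalized CPM of 12 transcripts in the 3 shNS and 3 shG9a ethanol libraries, with circles, squares and diamonds for replicates 1, 2 and 3 and bars for the mean ± SD of each group. The groups are apart in 11 panels, whereas the BHLHE40 panel shows a single high library, shG9a replicate 2, at 43.6 CPM.

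The other large rises were mostly of transcripts near the filter. GZMA, which encodes granzyme A, a protease of cytotoxic lymphocytes, had the largest rise, from 1.22, 0.368 and 0.510 CPM with shNS to 4.10, 5.08 and 5.30 CPM with shG9a (log2 fold change 2.79, standard error 0.44, adjusted p = 4.50e-04). Its shNS libraries held only 14, 4 and 6 counts, and without replicate 3 its adjusted p was 0.0989. PRF1 and GNLY, the cytotoxic granule partners of granzymes, were listed at 0 in all 6 libraries. Both have several RefSeq accessions, so this does not show that they are silent. NKG7, another marker of the T and NK cell list, was at 9.47 to 12.2 CPM with shG9a and at 8.75 to 12.4 CPM with shNS, which overlap. ASPHD1 was at 4.20, 4.05 and 5.30 CPM against 1.65, 1.75 and 1.70 CPM (log2 fold change 1.4, adjusted p = 0.00107; 0.0530 without replicate 3). KLHL31, a kelch-like adaptor gene, was at 2.64 to 3.70 against 1.10 to 1.48 CPM (log2 fold change 1.29, adjusted p = 0.00152; 0.105 at most when a replicate was left out). LRRC2-AS1 (log2 fold change 1.25, adjusted p = 0.00187; 0.129 without replicate 3) and GNA15-DT (1.25, adjusted p = 0.0105) are noncoding RNAs that overlap or neighbour LRRC2 and GNA15. The handling of strand is not given in the sources used here, so their reads cannot be told apart from those of the coding neighbours. GNA15-DT lost its call when any one of shG9a replicate 3, shNS replicate 1 or shNS replicate 3 was left out (adjusted p up to 0.0769). RPS4Y2, a ribosomal protein gene with near-identical copies, also met the rule, and its values are uncertain and not given.

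BHLHE40, a helix-loop-helix repressor of the circadian clock, and GPATCH2L had calls that were lost when single libraries were left out. BHLHE40 was at 16, 43.6 and 5.71 CPM with shG9a and at 6.78, 5.98 and 5.70 CPM with shNS (log2 fold change 1.60, standard error 0.40, adjusted p = 0.0257). Replicate 3 thus showed no rise, and without shG9a replicate 2 the log2 fold change was 1.00 with an adjusted p of 0.312. In the shGLP and shHP1γ ethanol libraries, replicate 2 was also the highest for BHLHE40, at 33.7 and 30.05 CPM, while shNS replicate 2 was not. The part of the replicate number in this value was not tested. GPATCH2L (log2 fold change 1.25, adjusted p = 0.0423) was at 1.07 to 2.15 CPM against 0.521 to 0.850 CPM. It lost its call without any one of shG9a replicates 2 and 3 and shNS replicates 1, 2 and 3 (adjusted p 0.119 to 0.210), and its log2 fold change was 0.01 when counts were summed per gene.

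Among the large falls, TSC22D3, which encodes the glucocorticoid-induced leucine zipper GILZ, was at 4.10, 2.75 and 2.48 CPM with shG9a and at 8.95, 8.10 and 7.14 CPM with shNS on its best counted accession. The groups do not overlap (log2 fold change -1.39, standard error 0.23, adjusted p = 5.99e-04; 0.0703 without replicate 3). CYRIA (FAM49A in the deposited table), a regulator of Rac1 and actin, was at 2.15, 3.18 and 1.16 CPM against 5.73, 5.16 and 4.76 CPM (log2 fold change -1.28, adjusted p = 9.67e-04; 0.101 without replicate 3). TFAP2C, an AP-2 transcription factor, was at 2.34, 1.55 and 0.910 CPM against 4.17, 4.24 and 2.64 CPM (log2 fold change -1.22, adjusted p = 0.0103). Leaving out shG9a replicate 2 or shNS replicate 2 alone ended that call, at adjusted p values of 0.0663 and 0.0613. The long noncoding RNAs LINC00861 (log2 fold change -1.90, adjusted p = 0.0144), LINC02422 (-1.15, adjusted p = 0.00472), LOC100128593 (-1.43, adjusted p = 0.00129) and BRWD1-AS2 (-1.21, adjusted p = 0.0342) fell as well. All were under 7 CPM in every library, and LINC00861 lost its call without shG9a replicate 2, shG9a replicate 3 or shNS replicate 3 (adjusted p up to 0.0994), and BRWD1-AS2 without replicate 1 or 2 of either group (up to 0.217). Without replicate 3 of all groups, LINC02422 and LOC100128593 had adjusted p values of 0.169 and 0.101.

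ZNF726, a KRAB zinc finger gene (log2 fold change -1.49, adjusted p = 0.0105), BRF1, a subunit of the RNA polymerase III initiation factor (-1.12, adjusted p = 0.0220), CACYBP, a calcyclin-binding protein (-1.09, adjusted p = 0.0103), and MORN1 (-1.06, adjusted p = 0.00927) were each called on 1 of several accessions at under 5 CPM. With counts summed per gene, the calls of ZNF726, BRF1 and CACYBP were lost and CACYBP had a log2 fold change of 0.03 with an adjusted p of 0.958. ZNF726 was also lost without shG9a replicate 1 or shNS replicate 1 (adjusted p up to 0.122), BRF1 without shG9a replicate 2 or 3 or shNS replicate 1 or 2 (up to 0.158), and MORN1 without shG9a replicate 1 or 2 or shNS replicate 2 (up to 0.0822). The calls of ZNF726, BRF1 and CACYBP thus describe single accessions and not their genes, whereas MORN1 kept its call with counts summed per gene. The remaining transcript with one of the smallest p values was APBA1, an adaptor of the synaptic exocytosis machinery. It was at 171, 174 and 310 CPM against 303, 370 and 510 CPM, so the groups overlap while each replicate pair fell (log2 fold change -0.87, standard error 0.08, adjusted p = 4.07e-07; 0.230 without the replicate term).

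Genes of 24 lists were then counted, beside the background of 3.73% called. No gene of the H3K9 machinery was called: of 22 tested transcripts of writers, readers and partners and 9 of demethylases, edgeR called 0, with 0 and 1 at an unadjusted p under 0.05. The 1 was KDM7A, a demethylase of H3K9 and H3K27, at a log2 fold change of 0.72 (adjusted p = 0.0673). Over the 15 lists with no call, which hold 247 different transcripts, 27 had an unadjusted p under 0.05 (15.2% of all tested transcripts did), limma called 0, DESeq2 called 2 and edgeR with TMM factors 1. These lists comprise, besides the H3K9 genes, B-lineage transcription factors (21 transcripts), apoptosis regulators (14), p53 targets (13), NF-kappaB genes (9), MYC and ribosome biogenesis genes (27), DNA replication genes (24), mitosis genes (21), histone genes (27), unfolded protein response genes (18), respiratory chain genes (26), MHC class II genes (4), adhesion and cytoskeleton genes (17) and germline genes. Of 36 listed germline genes only 1 accession, of TDRD9, passed the filter, and both groups of it were at the limit of detection.

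**Figure D3:**
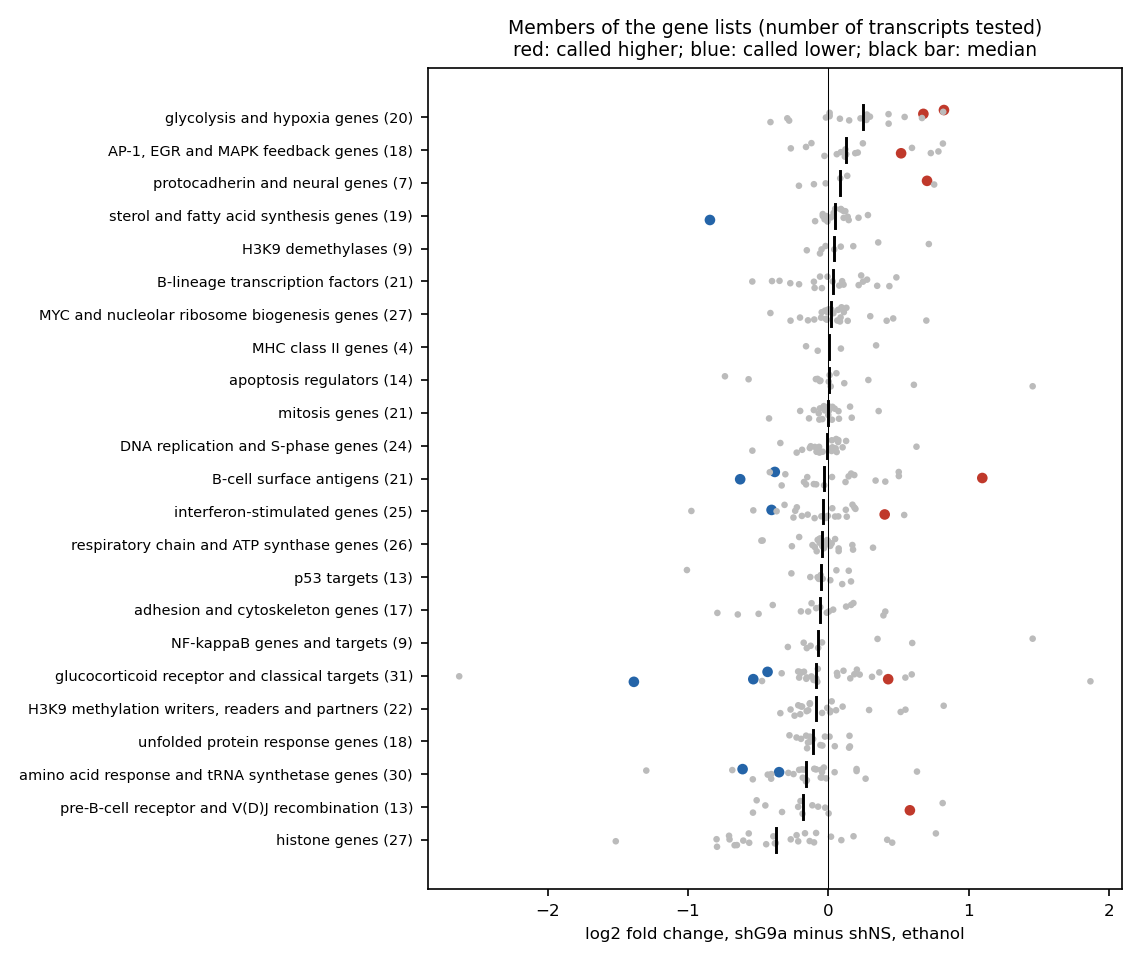
Log2 fold change (shG9a minus shNS, ethanol) of every tested transcript of 23 gene lists, 1 row per list with its number of transcripts in brackets, called transcripts in red (higher) or blue (lower), the list's median as a black bar, and the list of 1 germline transcript left out. Medians run from -0.37 (histone genes) to 0.25 (glycolysis and hypoxia genes), and no list has more than 4 called transcripts.

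Of the glucocorticoid receptor and its classical targets, 31 transcripts were tested, of which 1 was higher and 3 were lower (12.9% called), with a median log2 fold change of -0.09 against -0.02 over all tested transcripts. The 3 lower ones were TSC22D3, BTG2, an antiproliferative gene (172, 200 and 138 CPM against 272, 237 and 225 CPM, log2 fold change -0.53, adjusted p = 0.00323), and MT2A, a metallothionein that binds zinc and copper (111, 93.2 and 115 CPM against 140, 138 and 155 CPM, -0.43, adjusted p = 0.00427). MT2A lost its call without shG9a replicate 2 (adjusted p = 0.0539) and without replicate 3 of all groups (adjusted p = 0.135). BTG2 lost its call without replicate 3 or without the replicate term (adjusted p 0.209 at most). The higher one was ID3, an inhibitor of helix-loop-helix factors, at 433, 377 and 397 CPM against 302, 296 and 300 CPM (log2 fold change 0.43, standard error 0.07, adjusted p = 4.22e-04; 0.0703 without replicate 3). These 4 did not overlap between the groups, nor did 341 of the 379 called transcripts and 19.2% of all tested ones. Other targets of the list were not called, among them FKBP5 (0.31, adjusted p = 0.386), PER1 (0.11, adjusted p = 0.584) and DUSP1 (-0.12, adjusted p = 0.635).

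Among B-cell genes, RAG1 was called among 13 transcripts of the pre-B-cell receptor and V(D)J recombination list and was the only one (7.69%). RAG1 was at 2327, 2816 and 2226 CPM with shG9a and at 1721, 1641 and 1568 CPM with shNS, with no overlap (log2 fold change 0.58, standard error 0.11, adjusted p = 0.00167; 0.122 without replicate 3). Of the other 12, 10 had a negative log2 fold change, including VPREB3 (-0.51, adjusted p = 0.0656) and PLCG2, a phospholipase downstream of the B-cell receptor (-0.33, adjusted p = 0.0584). RAG2, the partner of RAG1, was counted at a low level (-0.54, adjusted p = 0.276). Of 21 transcripts of surface antigens, 1 was higher and 2 were lower. CD52, a small glycoprotein of lymphocytes, was at 7.61, 7.75 and 4.72 CPM against 3.91, 3.87 and 1.70 CPM (log2 fold change 1.10, adjusted p = 3.20e-04; 0.135 without the replicate term). CD72, an inhibitory coreceptor, was at 91.8, 97.4 and 59.7 CPM against 151, 125 and 107 CPM (-0.63, adjusted p = 0.00206; 0.240 at most without replicate 3 or the replicate term). CD180, a Toll-like receptor relative, was at 40.0, 36.8 and 35.0 CPM against 56.0, 45.8 and 44.4 CPM (-0.38, adjusted p = 0.00356; 0.243 at most without the replicate term, replicate 1 or replicate 3).

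Of 20 transcripts of the glycolysis and hypoxia list, 2 were higher (10% called) and 16 had a positive log2 fold change, with a median of 0.25. These were ENO2 and SLC2A3, the glucose transporter GLUT3. SLC2A3 was at 63.6, 92.0 and 50.1 CPM against 45.7, 44.7 and 37.0 CPM (log2 fold change 0.68, adjusted p = 0.0103). It was highest in shG9a replicate 2 and lost its call without that library (0.46, adjusted p = 0.144) or without shNS replicate 1 or 2 (up to 0.0683). BNIP3, a mitophagy receptor (0.67, adjusted p = 0.217), HK2, a hexokinase (0.27, adjusted p = 0.179), and PGK1 (0.08, adjusted p = 0.657) did not pass. The amino acid response and tRNA synthetase list had 2 lower transcripts of 30 (6.67%), with 25 negative values and a median of -0.16. TRIB3, a pseudokinase induced by ATF4, was at 21.0, 19.8 and 19.1 CPM against 31.3, 29.6 and 30.4 CPM (-0.61, adjusted p = 0.0121). Leaving out shG9a replicate 2 or 3 or shNS replicate 1 or 3 alone ended the TRIB3 call (adjusted p 0.0514 to 0.0716). SARS1, seryl-tRNA synthetase, was called on a noncoding accession (86.0, 90.4 and 86.6 CPM against 122, 112 and 103 CPM, -0.35, adjusted p = 0.00284; 0.0911 at most without replicate 3 or the replicate term). ATF4 itself was not called (-0.05, adjusted p = 0.939).

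Single members were called in the remaining lists. ABCA1, which exports cholesterol from cells, was the only called transcript of 19 of the sterol and fatty acid list, at 35.6, 39.8 and 35.7 CPM against 74.0, 58.7 and 68.1 CPM (log2 fold change -0.84, standard error 0.14, adjusted p = 8.30e-04; 0.125 without replicate 3). JUN was 1 of 18 AP-1, EGR and MAPK feedback transcripts, at 123, 93.5 and 88.9 CPM against 86.4, 63.5 and 63.3 CPM (0.52, adjusted p = 0.0105), and lost its call without shG9a replicate 3, shNS replicate 1 or shNS replicate 2 (up to 0.0779), and without the replicate term (0.510). KCNJ2, an inward rectifier potassium channel, was 1 of 7 neural transcripts, at 75.2, 57.3 and 79.5 CPM against 43.3, 46.0 and 40.8 CPM (0.70, adjusted p = 0.00274; 0.105 without replicate 3). Among the interferon-stimulated transcripts, OAS3, which makes the activator of RNase L, was at 56.4, 58.1 and 63.8 CPM against 45.0, 46.5 and 43.2 CPM (0.40, adjusted p = 0.0423). OAS3 lost its call on leaving out any one of the 6 libraries (adjusted p 0.0535 to 0.241). No histone gene was called (7 of 27 at an unadjusted p under 0.05, 0 called by DESeq2 and limma), and 21 of the 27 values were negative with a median of -0.37. Of 300 transcripts of ZNF-named zinc finger genes, 3 were higher and 12 lower (5%), and of 1157 long noncoding transcripts 7 were higher and 14 lower (1.82%), against 4.28% of 8208 protein-coding ones. Calls were more frequent among well counted transcripts: 6.87% of transcripts with a mean of at least 10 CPM were called, and 7.45% of those with at least 100 CPM.

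Whether the G9a values differed from those of the other depletions without hormone was tested directly. Between shG9a and shGLP ethanol cells 633 transcripts differed (6.23%), with 243 higher (2.39%) and 390 lower (3.84%) with shG9a, and between shG9a and shHP1γ ethanol cells 617 (6.07%), with 223 higher (2.19%) and 394 lower (3.88%). Against shNS, 367 transcripts differed with shGLP (3.61%), 196 higher (1.93%) and 171 lower (1.68%), and 296 differed with shHP1γ (2.91%), 165 higher (1.62%) and 131 lower (1.29%). The balance again depended on scaling, with 38.4% and 36.1% of these higher as given and 52.1% and 48.4% with TMM factors. Without the replicate term 254 and 240 were called, and leaving out replicate 3 gave 133 and 99. All effects against shNS share the same 3 shNS libraries, so they are given side by side. TUFM was raised by each of the 3 shRNAs. The log2 fold change against shNS was 1.59 with shG9a, 1.52 with shGLP and 1.57 with shHP1γ, and shG9a differed from shGLP by 0.07 (standard error 0.06, adjusted p = 0.566) and from shHP1γ by 0.02 (standard error 0.06, adjusted p = 0.897). The shNS libraries were the low ones for TUFM, and a property of the shNS cells and an effect of each depletion cannot be told apart there. For FBXO33 the log2 fold changes were 0.64, 0.61 and 0.61, with the shNS libraries again the low ones.

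GP5, TTC24, ENO2, CNOT11, KIF1B, RBM3, PROSER1 and LCN6 differed from both other depletions. TTC24 was higher with shG9a than with shGLP by 0.67 (log2, adjusted p = 0.0377) and than with shHP1γ by 0.98 (adjusted p = 0.00357). Against shNS, TTC24 rose with shGLP as well (0.98, adjusted p = 0.0119). CNOT11 was at 282 to 307 CPM in the shGLP and 257 to 283 CPM in the shHP1γ ethanol libraries, near the shNS level, and shG9a was lower by -0.95 (log2, standard error 0.06, adjusted p = 5.98e-11) and -0.85 (standard error 0.06, adjusted p = 8.47e-10). For KIF1B the differences were -0.65 (adjusted p = 5.82e-08) and -0.81 (adjusted p = 2.27e-09), for RBM3 -0.68 (adjusted p = 9.87e-10) and -0.50 (adjusted p = 2.36e-07), for PROSER1 -0.61 in both cases (adjusted p = 9.51e-09 and 1.16e-08) and for LCN6 -0.98 and -0.96 (adjusted p = 4.30e-05 and 7.09e-05). GP5 was at 21.7 to 29.3 CPM with shGLP and at 72.2, 23.7 and 31.7 CPM with shHP1γ. It was higher with shG9a than with shGLP by 1.99 (standard error 0.24, adjusted p = 6.92e-06) and than with shHP1γ by 1.38 (standard error 0.23, adjusted p = 4.81e-04), although shHP1γ replicate 1 stood out. ABCA1 was also lower with shG9a than with either (-1.05 and -1.06, adjusted p = 4.07e-05 and 5.00e-05).

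Other genes were shared with 1 depletion or moved the opposite way. RAG1 rose by 0.56 with shGLP (adjusted p = 0.00176), with a difference between shG9a and shGLP of 0.02 (standard error 0.10, adjusted p = 0.941), and was 0.93 higher with shG9a than with shHP1γ (adjusted p = 4.35e-06). GZMA and CD52 followed the same pattern: they differed from shHP1γ by 1.69 and 0.83 (adjusted p = 0.00893 and 0.00263), while for shGLP the difference was -0.44 (standard error 0.30) and 0.14 (standard error 0.15) and did not pass. CYRIA, TFAP2C and CD180 rose with shGLP (1.07, 1.3 and 0.94 against shNS) where they fell with shG9a, and shG9a and shGLP differed by -2.35, -2.52 and -1.32 (adjusted p = 5.82e-08, 3.54e-07 and 5.98e-11). CD180 fell by 0.32 on the log2 scale with shHP1γ, and shG9a differed from it by -0.06 (log2, standard error 0.08, adjusted p = 0.759).

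**Figure D4:**
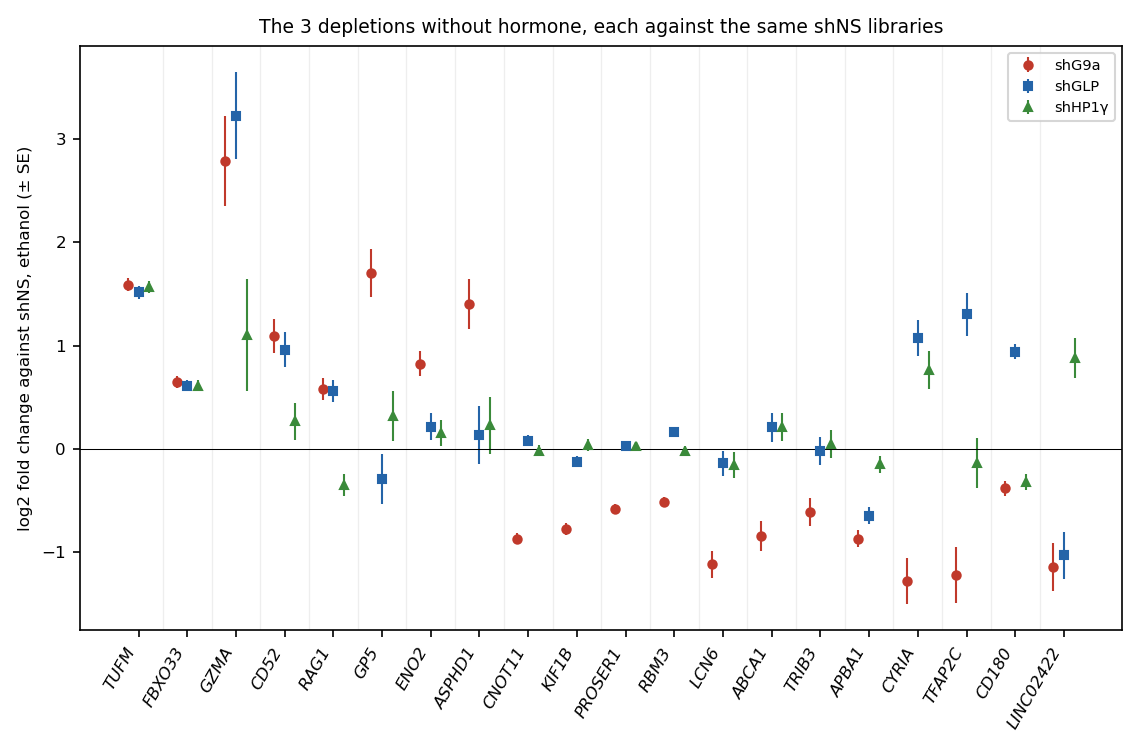
Log2 fold change against the same 3 shNS ethanol libraries (± standard error) of 20 transcripts with shG9a (red circles), shGLP (blue squares) and shHP1γ (green triangles). TUFM and FBXO33 lie together for the 3 depletions, CNOT11, KIF1B, PROSER1, RBM3 and LCN6 are low only with shG9a, and CYRIA, TFAP2C and CD180 lie on opposite sides of 0 for shG9a and shGLP.

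The same depletion was measured again in dex-treated cells, in 6 libraries that share none with the ethanol comparison but are fitted in the same model. There, 895 transcripts differed between shG9a and shNS (8.80%), 445 higher (4.38%) and 450 lower (4.43%), or 320 without the replicate term. Of the 379 transcripts called in ethanol, 370 had the same sign in dex, 158 of the 162 higher and 212 of the 217 lower ones, and 244 were also called with that sign. These 244 are 64.4% of the ethanol calls and 27.3% of the dex calls. Across the 379 transcripts, which are not independent replicates and were chosen for their ethanol effect, Pearson's r of the 2 effects was 0.88 and Spearman's rho 0.89, and over all 10167 transcripts r was 0.37. TUFM had a log2 fold change of 1.70 in dex, CNOT11 -0.81, KIF1B -0.74, RBM3 -0.51, FBXO33 0.61 and ENO2 0.78. GP5 was lower in dex in both groups, at 53.1, 46.2 and 62.5 CPM with shG9a and at 10.6, 6.28 and 8.89 CPM with shNS, and its log2 fold change of 2.68 exceeded the ethanol value by 0.98 without passing the test of that difference (log2, standard error 0.36, adjusted p = 0.635). BHLHE40 had a log2 fold change of 0.27 in dex (adjusted p = 0.759).

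A difference between the effect in dex and in ethanol was called for 9 transcripts (0.0885%), 1 with a higher (0.00984%) and 8 with a lower (0.0787%) effect in dex. Without the replicate term the count was 2, without replicate 2 or replicate 3 it was 0, and DESeq2 called 18. Among the 379 transcripts called in ethanol there were 4 of the 9: ID3, TMT1A (METTL7A in the deposited table), DEPP1 (C10orf10) and BTNL9. ID3, described above for ethanol, was in dex at 243, 289 and 243 CPM against 126, 117 and 112 CPM, a log2 fold change of 1.13, larger by 0.70 than in ethanol. TMT1A, a thiol methyltransferase, was at 44.4, 49.7 and 31.6 CPM against 59.8, 56.2 and 47.7 CPM in ethanol (-0.39, adjusted p = 0.00622; 0.0616 without shG9a replicate 3, 0.351 without the replicate term, and also lost without replicate 1 or 3 of all groups) and at 82.3 to 99.5 against 169 to 196 CPM in dex (-1.01). DEPP1, a FOXO target, was at 37.2, 60.4 and 31.9 CPM against 27.5, 27.2 and 24.1 CPM in ethanol (0.69, adjusted p = 0.0131; 0.175 without shG9a replicate 2, 0.105 without shNS replicate 2 and 0.0733 without shNS replicate 3) and at 57.5 to 88.0 against 87.4 to 109 CPM in dex (-0.41, adjusted p = 0.0778). BTNL9, a butyrophilin-like gene, was at 22.1, 20.4 and 18.5 CPM against 16, 14.5 and 15.2 CPM in ethanol (0.41, adjusted p = 0.0306) and at 38.9 to 41.3 against 46.6 to 52.1 CPM in dex (-0.31, adjusted p = 0.0396). It was the 1 transcript called in opposite directions, and its ethanol call was lost without any one of the 6 libraries but shG9a replicate 3 (adjusted p 0.0921 to 0.163).

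**Figure D5:**
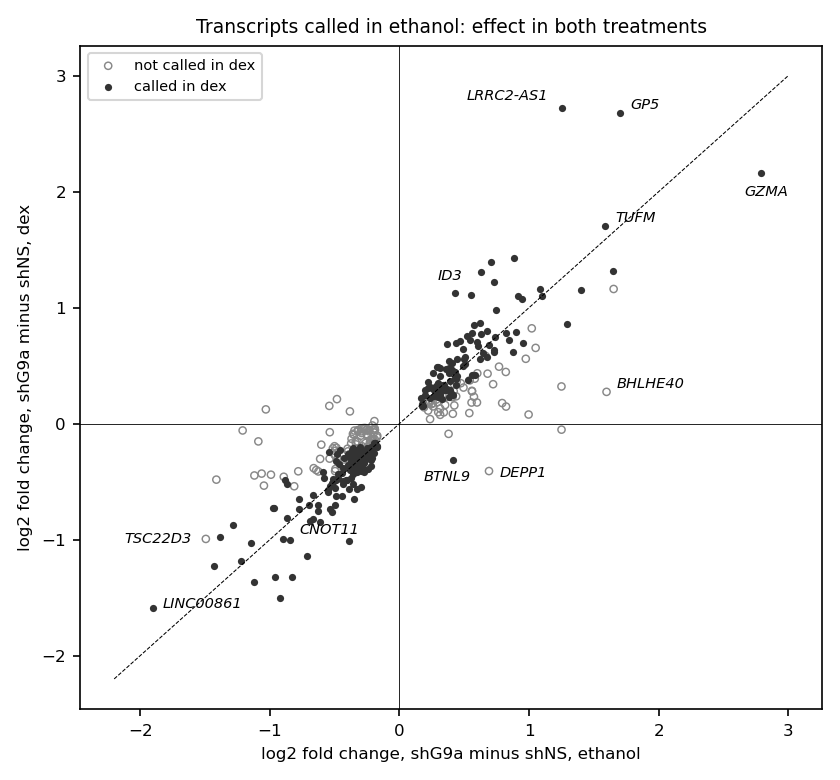
Log2 fold change of shG9a against shNS in dex (vertical) and in ethanol (horizontal) for the transcripts called in ethanol, 1 Y-linked transcript left out, filled where also called in dex, with a dashed line at equal effects. Of the 379 transcripts 370 have the same sign, and BTNL9 is filled on the opposite side of 0.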

How the data were processed

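RNA was sequenced by the authors as paired-end reads of 75 bases, trimmed, mapped to hg19 (GRCh37) with HISAT2 and counted on RefSeq transcripts with GenomicAlignments. How overlapping isoforms and strand were handled, and which RefSeq version served, is not given in the sources used here. The deposited table is named for CPM but holds whole numbers whose library totals differ, and it was read as raw counts. A second deposited table holds the authors' log2 fold changes and FDR values for comparisons that involve dex, which were not used.

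The tests on these counts used edgeR 4.0.16 (R 4.3.3). Transcripts with more than 1 CPM in at least 2 libraries were kept, scaled by upper quartile factors, and fitted over all 24 libraries with 8 groups and the replicate number as terms. The authors' correction for unwanted variation (RUV) was replaced by that term. Each contrast had a quasi-likelihood F test with Benjamini-Hochberg adjustment over 10167 transcripts and a limit of 0.05. CPM values carry the upper quartile scaling, and a P value measures only the spread between these libraries. With 3 libraries against 3, an exact two-sided permutation test of a single transcript cannot go below 0.1, so none is given. Statistics were tested on simulated data. Figures were drawn with matplotlib 3.10.9.

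By the labels, the 3 replicates of a condition were made on different days, but whether a number marks the same day in every group is not stated. Deviations from the group mean of same-numbered shG9a and shNS ethanol libraries correlated at 0.177, 0.032 and 0.326 for replicates 1, 2 and 3. Replicates of the shG9a and shNS ethanol groups differed by more than sampling noise (chi-squared over degrees of freedom 3.15 to 10.1). Replicates of the other groups were not compared for that noise. Same-numbered libraries of the other pairs of groups in the series correlated at -0.00249 to 0.639. Intervals or limits of detection (3 counts) cover counting error only.

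Accessions were named from a RefSeq gene table (63568 of 64519) or the deposited symbols (177). The gene lists, markers and alternatives were chosen with earlier results of these data known. Named transcripts were EHMT2, EHMT1, WIZ, CBX3 and NR3C1, the 12 largest rises and 12 largest falls among calls with a mean of at least 1 CPM and 3 of 3 pairs in 1 direction, the next 6 by p, up to 4 called members of each list, and, outside that rule and chosen after their values were seen, those with a different effect in dex. Genes that the text names as not called were picked from the lists, with values known, for their role. TMM factors, DESeq2 1.42.0, limma 3.58.1 on log2(CPM + 1), other filters, no replicate term, only the groups compared, counts summed per gene, and leaving out replicates or single libraries were tried. Some genes of the lists are not reported here.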

Additional observations from a re-analysis of the deposited data

Results flagged for a closer look

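The effect of G9a depletion differed between dex and ethanol for 9 transcripts by the test of that difference in the model of all libraries (edgeR, adjusted over all tested transcripts). The differences, dex minus ethanol on the log2 scale, were 0.70 for ID3 (standard error 0.09, adjusted p = 0.00185), -0.62 for TMT1A (0.11, adjusted p = 0.0150), -1.10 for DEPP1 (0.21, adjusted p = 0.0436) and -0.72 for BTNL9 (0.14, adjusted p = 0.0454), which were called in ethanol, and for the 5 that were not called in ethanol -1.23 for CERNA2, a noncoding RNA (0.21, adjusted p = 0.0124), -0.81 for CYTH3, an exchange factor of ARF proteins (0.12, adjusted p = 0.00344), -0.72 for PER1, a core clock gene (0.11, adjusted p = 0.00344), -0.99 for KCNK3, a potassium channel (0.17, adjusted p = 0.0143), and -0.82 for DISP3 (0.14, adjusted p = 0.0143).

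In ethanol, CYTH3 was at 109, 104 and 99.0 CPM with shG9a and at 118, 120 and 118 CPM with shNS, and in dex at 192 to 216 CPM against 387 to 448 CPM. PER1 was at 166, 166 and 186 CPM against 137, 160 and 186 CPM in ethanol and at 196 to 314 CPM against 353 to 439 CPM in dex. For KCNK3, DISP3 and CERNA2 the ethanol libraries of both groups overlapped, while every dex library with shNS except 1 of KCNK3 was above all dex libraries with shG9a. The shNS levels of these 5 were higher in dex than in ethanol in every replicate. None of the groups here has enough libraries for a test of single outlying samples.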

How the results depend on the processing

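Of 59 named transcripts, no other setting reversed a called direction except for CACYBP, at 0.0263 with counts summed per gene. Over the ethanol contrast's 17 alternatives, the count of 379 was 318 to 448 under TMM factors, DESeq2, limma and other filters or per gene. Only the groups compared gave 885 (367 at 1.3-fold or more, in place of 205), and this setting gave 1590 transcripts different between shG9a and shGLP in ethanol, 150 against shHP1γ, 170 in dex and 2 differences between dex and ethanol. Leaving out replicates or single libraries gave 28 to 284 (28 to 182 at 1.3-fold), 133 to 528 against shGLP, 99 to 630 against shHP1γ, 166 to 946 transcripts different between shG9a and shNS in dex and 0 to 13 differences between treatments. Those differences numbered 18 with DESeq2 and 63 without a filter on low counts. The causes were not tested.

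Without the replicate block the counts were 112 in ethanol (81 at 1.3-fold or more), 254 against shGLP, 240 against shHP1γ, 320 in dex and 2 differences between treatments, and all 112 were among the 379.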

Other observations

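Some further called transcripts are given here, picked after their values were seen and outside the naming rule, so they stand for no group. CD48, an adhesion molecule of leukocytes, was at 9.17, 12.7 and 9.76 CPM with shG9a and at 19.72, 19.98 and 19.13 CPM with shNS (log2 fold change -0.90, edgeR adjusted p of 1.97e-05). LAPTM5, a lysosomal protein of lymphocytes, had a log2 fold change of -0.52 (adjusted p = 4.42e-05), PSMB10, an immunoproteasome subunit, of -0.47 (adjusted p = 1.30e-04), and B2M, the light chain of MHC class I, of -0.30 (adjusted p = 0.00629).

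Among TAF-named genes, likewise picked from the calls, TAF7 (-0.35, adjusted p = 0.00107), TAF13 (-0.43, adjusted p = 0.0435) and both tested accessions of TAF5L (-0.64 and -0.30, adjusted p = 0.0103 and 0.0201) fell. TAF9B, a paralog of TAF9, rose (0.38, adjusted p = 4.38e-04). The mediator subunits MED10 (-0.36) and MED14 (-0.22), picked in the same way, fell. No test of these groups was made, since they were chosen from the calls, and 3.73% of all tested transcripts were called.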
